A study of Mus musculus with 12 samples.

Results

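The genes described here are 43 listed effector genes known to be induced by interferon in mouse cells, followed across 12 RNA sequencing libraries of preadipocytes and adipocytes with or without Acly, the gene of ATP citrate lyase. They were picked from the deposited expression table by gene symbol. Of the 43 symbols, 42 were found among the 24341 genes of the table, and Rnf213 is not analysed here. All 42 passed the filter on low values, which 11777 genes passed in all. Oas3 and Epsti1 passed it only through their Acly-/- libraries, so a difference between genotypes was built into their passing. Both are kept in the counts of calls below. Their genotype differences, and the change of these between stages, are given with no p-value.

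The cells were preadipocytes from adipose tissue of C57Bl/6 mice, immortalised with SV40 in every group. The 4 groups, with 3 libraries each, were Aclyf/f preadipocytes (day 0), Acly-/- preadipocytes (day 0), Aclyf/f adipocytes (day 4) and Acly-/- adipocytes (day 4). The Aclyf/f controls carry Acly alleles flanked by loxP sites. The other cells are labelled Acly-/- and are called cells without Acly here, although some Acly signal remained in their libraries. All cultures reached confluence in DMEM with serum before sampling, and day 4 cells had in addition received a standard differentiation cocktail that contained rosiglitazone, an agonist of PPARgamma. The sources used here do not state the means of deletion, the exons lost, or whether libraries of a group came from separate cultures, clones or animals, so each p-value reflects only the scatter among these libraries. The age of the donor animals is likewise not given there.

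Type I interferons, the interferon-alpha family and interferon-beta, bind the receptor pair IFNAR1 and IFNAR2 on nearly all cells and activate the kinases JAK1 and TYK2. STAT2 and IRF9 then act within the complex ISGF3, which binds the interferon-stimulated response element (ISRE). Interferon-gamma uses its own receptor and acts through the gamma-activated site (GAS). Genes switched on by these complexes block viral entry, RNA synthesis, translation and budding, or attach the ubiquitin-like protein ISG15 to other proteins. Preadipocytes and adipocytes carry interferon receptors and can switch on this programme without immune cells.

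Levels are given as FPKM, sequenced fragments divided by transcript length and by the mapped total, so that genes can be compared per length. Acly itself stood at 89.5, 86.2 and 84.9 FPKM in Aclyf/f preadipocytes, 11.9, 12.5 and 11.9 in Acly-/- preadipocytes, 814, 722 and 724 in Aclyf/f adipocytes and 13.2, 12.8 and 11 in Acly-/- adipocytes. At each stage the libraries labelled Acly-/- were thus all below those labelled Aclyf/f. Adipocyte markers (Adipoq, Plin1, Cidec, Fabp4, Lpl, Cfd) summed to 1010 to 1080 FPKM in Aclyf/f preadipocytes and 592 to 660 FPKM in preadipocytes without Acly, against 11100 to 11900 FPKM and 6560 to 8100 FPKM in adipocytes of the same genotypes. Of 5 preadipocyte markers, Pdgfra, Pdgfrb and Ly6a were well above 1 FPKM at day 0, while Thy1 and Cd34 were not. The 5 summed to 641 to 744 FPKM in Aclyf/f preadipocytes and 833 to 1150 FPKM in Acly-/- preadipocytes, and at day 4 to 133 to 199 FPKM in Aclyf/f and 691 to 738 FPKM in Acly-/- adipocytes. Ly6a made up most of each of these sums, with means of 467, 834, 128 and 649 FPKM in the same order of groups. The leukocyte genes Ptprc, Itgam, Nkg7 and Tyrobp sat on the floor of the table, 0.01 FPKM, in all 12 libraries. Relative depth spanned 1 to 1.93. Libraries of a group correlated at 0.986 to 0.993 over genes.

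The ISRE is the sequence shared by promoters of this kind, so start-site windows were read for the listed genes. RefSeq windows on GRCm38.p6, from 250 bases before to 50 bases after the annotated start, were found for 33 of the 42 genes. The ISRE core was searched as GAAA, any 2 bases, GAAA, and the GAS as TTCNNNGAA, both on either strand. The ISRE core occurred in 16 of 33 genes (48.5%), against 3.99% of 27025 genes with a window, and the GAS in 9 of 33 (27.3%), against 9.55% of genes. A total of 10 GAS matches and 27 ISRE matches were counted, and 2 of the GAS matches overlapped an ISRE core. Of the ISRE matches, 23 lay within 150 bases before the start, in 15 genes. No entry was found for Iigp1, Ifi27, Mx1, Mx2, Parp9, Parp14, Rtp4, Usp18 and Oas2.

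Printed here are the 150 bases before the start of 9 genes with the core and of Isg20, which has none and is the member with opposite calls at the 2 stages. They were chosen after the values were seen. Each runs 5′ to 3′ on the strand of the gene, and capitals mark ISRE cores on either strand. Positions on GRCm38.p6 are chr4:156200819-156200968 (minus strand) for Isg15, chr19:34640739-34640888 (plus) for Ifit1, chr5:120777660-120777809 (minus) for Oas3, chr5:120907526-120907675 (minus) for Oas1a, chr12:26456453-26456602 (minus) for Rsad2, chr3:142620513-142620662 (plus) for Gbp2, chr11:48871421-48871570 (minus) for Irgm1, chr11:58199406-58199555 (plus) for Igtp, chr11:58214827-58214976 (plus) for Irgm2 and chr7:78913274-78913423 (plus) for Isg20.
Isg15: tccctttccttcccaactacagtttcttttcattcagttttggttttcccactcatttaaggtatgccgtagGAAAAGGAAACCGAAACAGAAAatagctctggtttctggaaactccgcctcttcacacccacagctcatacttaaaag
Ifit1: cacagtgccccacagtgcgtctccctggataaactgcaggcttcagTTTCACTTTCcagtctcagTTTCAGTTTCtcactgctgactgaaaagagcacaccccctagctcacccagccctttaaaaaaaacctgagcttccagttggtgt
Oas3: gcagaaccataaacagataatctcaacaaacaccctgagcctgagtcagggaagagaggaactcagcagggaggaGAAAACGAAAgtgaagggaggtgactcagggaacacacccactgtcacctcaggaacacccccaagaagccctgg
Oas1a: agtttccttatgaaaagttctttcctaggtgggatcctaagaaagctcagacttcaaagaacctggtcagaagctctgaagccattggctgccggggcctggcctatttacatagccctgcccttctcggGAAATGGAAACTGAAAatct
Rsad2: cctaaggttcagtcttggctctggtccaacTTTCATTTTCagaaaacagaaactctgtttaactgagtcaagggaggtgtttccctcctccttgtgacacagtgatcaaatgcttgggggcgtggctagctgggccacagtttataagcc
Gbp2: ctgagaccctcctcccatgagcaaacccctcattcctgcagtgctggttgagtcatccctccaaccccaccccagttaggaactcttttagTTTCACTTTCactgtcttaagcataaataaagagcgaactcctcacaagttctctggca
Irgm1: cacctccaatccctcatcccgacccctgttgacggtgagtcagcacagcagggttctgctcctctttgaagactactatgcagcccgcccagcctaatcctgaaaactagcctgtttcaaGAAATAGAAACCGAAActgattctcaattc
Igtp: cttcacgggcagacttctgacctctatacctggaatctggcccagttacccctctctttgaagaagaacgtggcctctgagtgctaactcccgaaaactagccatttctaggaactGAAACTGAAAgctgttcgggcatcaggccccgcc
Irgm2: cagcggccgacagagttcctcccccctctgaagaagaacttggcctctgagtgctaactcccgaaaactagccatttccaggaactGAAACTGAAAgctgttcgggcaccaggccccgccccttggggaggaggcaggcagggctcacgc
Isg20: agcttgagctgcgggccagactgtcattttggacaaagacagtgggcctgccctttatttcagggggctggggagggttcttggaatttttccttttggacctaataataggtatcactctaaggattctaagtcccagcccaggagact

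Isg15 showed 3 overlapping cores in a single run, Ifit1 a pair 9 bases apart, and Oas1a and Irgm1 overlapping pairs close to the start. The windows of the neighbours Igtp and Irgm2 share a run of 38 identical bases, and both hold the same core. A match of letters is a description and no measure of binding. For Acly loss in preadipocytes the median log2 fold change was 1.91 over the 16 genes with an ISRE core and 1.84 over the 17 without, and in adipocytes it was 1.47 and 1.15. The map of matches by distance from the start places most of them in the last 150 bases.

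**Figure D1:**
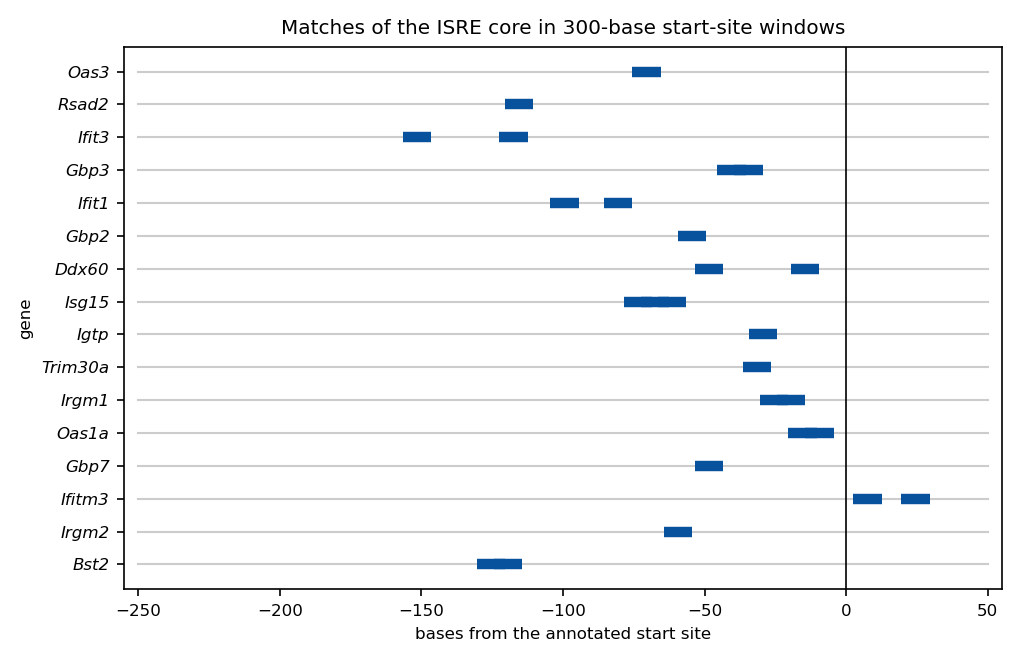
Positions of ISRE core matches (blue bars) in the 300-base window around the annotated start site of the 16 genes that hold one, in bases from the start (vertical line at 0). For Trim30a the match in the window starting at 104446076 is counted but not drawn. Genes run from the largest to the smallest log2 fold change for Acly loss in preadipocytes; 23 of the 27 matches lie within 150 bases before the start.

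The first comparison asked how the listed genes differ between Acly-/- and Aclyf/f preadipocytes. Nearly all were higher without Acly: 41 of 42 were called higher, 0 lower, and Ifi27, which encodes a small hydrophobic protein, had no call. All 42 log2 fold changes were positive. Over all genes tested, 19.7% were called higher and 22.4% lower. Calls are from limma on log2(FPKM + 1), at a Benjamini-Hochberg adjusted p under 0.05 over all 11777 genes. A log2 fold change of at least 1 was reached by 38 of the 41, against 2.97% of all genes. The median log2 fold change was 1.82 over the listed genes and -0.01 over all genes, on a scale that understates changes of low genes. Ratios of mean FPKM ran from 1.20 for Ifi27 to 32.2 for Oas3, with a median of 3.63. In all 42 genes the 3 Acly-/- libraries lay above the 3 Aclyf/f libraries, which was so for 23.2% of all genes.

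By role, all 17 antiviral effectors were higher (median log2 fold change 2.05), as were all 10 measured genes of the ISG15 system, ubiquitin ligases and ADP-ribosyltransferases (1.77) and all 7 large GTPases (1.68). Of 8 other interferon-induced genes 7 were higher (1.47). Together the listed genes took 0.443% to 0.519% of the summed FPKM in Aclyf/f preadipocytes and 1.06% to 1.39% in those without Acly. Across the whole table, calls were 46.8% higher, and 34.7% higher when FPKM were rescaled to the same sum in every library. In Acly-/- preadipocyte library 3, Snord12 alone took 8.9% of the sum. The listed genes stayed at 41 higher and 0 lower under that scaling.

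The second comparison asked the same of day 4 adipocytes. Most of the genes higher without Acly at day 0 were higher without it at day 4 too, 40 of 41. The share of all genes called higher at both stages was not counted. Of the 42, 40 were called higher in Acly-/- adipocytes, 1 lower (Isg20) and 1 had no call (Ifi27), against 25.6% higher and 29.2% lower over all genes. The median log2 fold change was 1.36, with -0.02 over all genes, and 27 genes reached a rise of at least 1, against 3.53% of all genes. Ratios of mean FPKM ran from 0.627 for Isg20 to 19.7 for Oas2, with a median of 2.79. Groups did not overlap in 39 genes that were higher and 1 that was lower, against 29.5% and 33.7% of all genes. The share of summed FPKM was 0.261% to 0.360% in Aclyf/f and 0.657% to 0.688% in Acly-/- adipocytes.

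Of the antiviral effectors 16 of 17 were higher in adipocytes and 1 lower, with a median log2 fold change of 1.95. In the ISG15 and ubiquitin class all 10 were higher with a median of 0.81, and all 7 GTPases with a median of 0.83. Of the other genes 7 of 8 were higher (median 0.99). Calls over the whole table were 46.7% higher, and 36.4% higher with the same FPKM sum, where the listed genes counted 38 higher and 2 lower. The smallest rises were unstable: the calls of Igtp, Ifi35 and Helz2 each ended without Aclyf/f adipocyte library 2 (adjusted p 0.0955, 0.0519 and 0.0837) or library 3 (0.0861, 0.0631 and 0.0658). The Helz2 call also ended without Acly-/- adipocyte library 1 (0.0915) or 2 (0.105), and that of Igtp without Acly-/- adipocyte library 1 (0.0533), 2 (0.0517) or 3 (0.0581).

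Leukocyte markers were read beside these differences, since immune cells express the same genes. Their 12 genes summed to 1.81 to 3.71 FPKM in Aclyf/f preadipocytes, 2.32 to 4.67 FPKM in Acly-/- preadipocytes, 2.06 to 3.07 FPKM in Aclyf/f adipocytes and 30.7 to 35.4 FPKM in Acly-/- adipocytes. In the last group Cd68, a lysosomal glycoprotein, made up 29.0 to 34.4 FPKM of the sum. Between 7 and 8 of the 12 were on the floor in every library of a group. Of the defining markers, Ptprc was on the floor throughout, Cd3e reached at most 0.0551 FPKM, Siglech 0.0422 FPKM and Csf1r 0.577 FPKM. Endothelial markers summed to at most 1.67 FPKM. All 6 adipocyte markers were called lower in Acly-/- adipocytes, against 29.2% of all genes. Their log2 fold changes ran from -3.80 to -0.24, with a median of -1.15. In preadipocytes Fabp4 (log2 fold change -1.34) and Lpl (-0.29) were called lower and the other 4 had no call. The preadipocyte markers Pdgfra, Pdgfrb and Ly6a were all called higher in Acly-/- adipocytes, by 0.92, 1.40 and 2.37, while Thy1 and Cd34 did not pass the filter. In preadipocytes Pdgfra was lower (-0.86), and Pdgfrb (0.25) and Ly6a (0.83) were higher. The part of these markers in the differences of the listed genes was not tested. In such bulk samples, fewer cells of a type and less RNA per cell cannot be told apart.

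**Figure D2:**
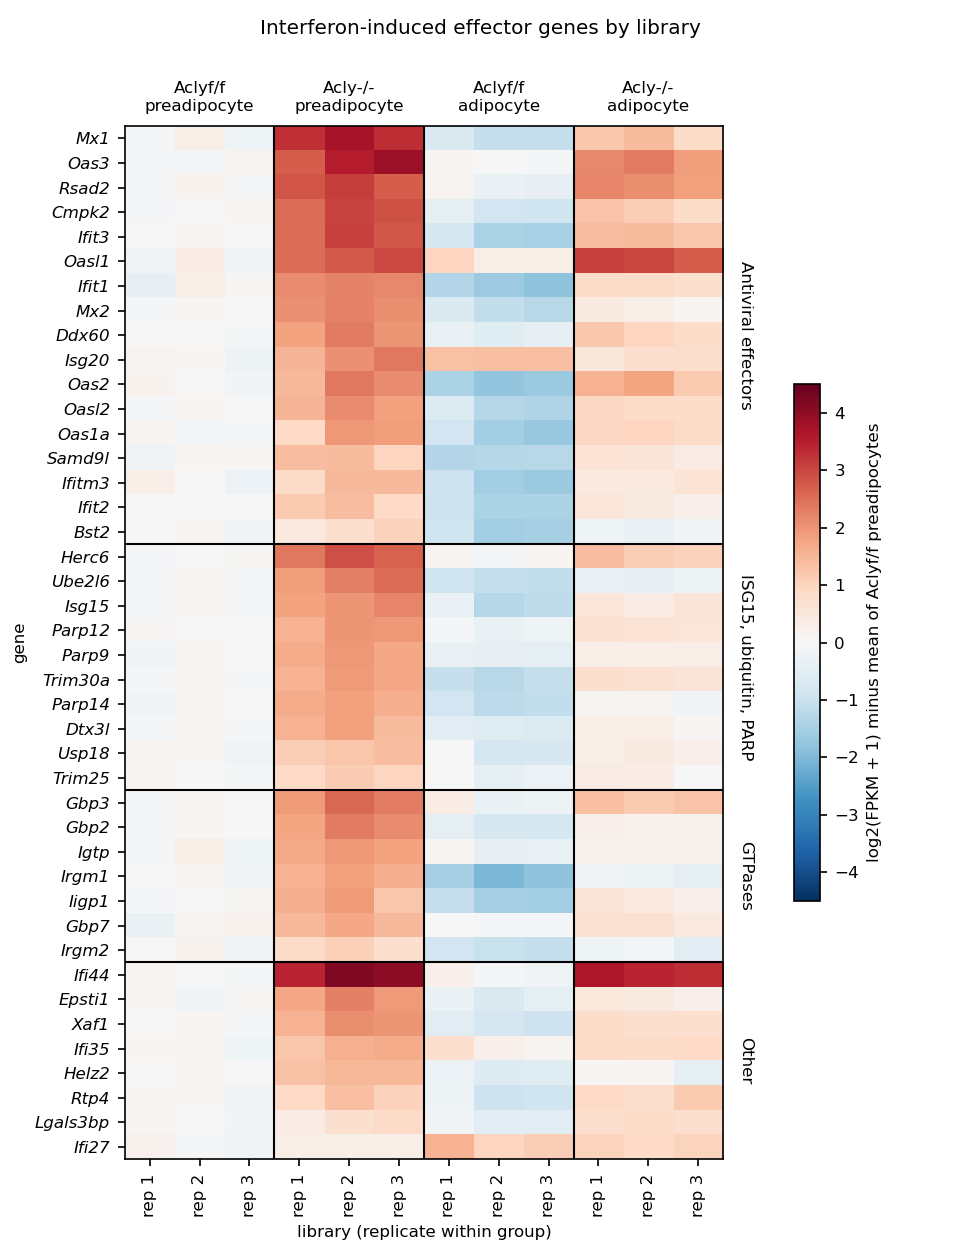
Level of each of the 42 genes in each of the 12 libraries, as log2(FPKM + 1) minus the mean of the 3 Aclyf/f preadipocyte libraries (red higher, blue lower), ordered within role class by log2 fold change for Acly loss in preadipocytes. The Acly-/- preadipocyte columns are red in nearly every row, the Aclyf/f adipocyte columns mostly blue, and Aclyf/f adipocyte replicate 1 is less blue than replicates 2 and 3.

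The highest mean level was in Acly-/- preadipocytes for 39 of the 42 genes, in Acly-/- adipocytes for Oasl1 and Lgals3bp and in Aclyf/f adipocytes for Ifi27. The lowest was in Aclyf/f adipocytes for 36 genes and in Aclyf/f preadipocytes for 6. In 30 genes the order of means was Acly-/- preadipocytes, Acly-/- adipocytes, Aclyf/f preadipocytes, Aclyf/f adipocytes. In 5 others (Bst2, Helz2, Irgm1, Irgm2 and Ube2l6) Aclyf/f preadipocytes stood above Acly-/- adipocytes. Ifitm3, which blocks fusion of virus with endosomes, was the most abundant listed gene in 3 groups, at 686 ± 134 FPKM (SD, n = 3) in preadipocytes with Acly and 1654 ± 366 FPKM in those without. Libraries were not even within groups: Aclyf/f adipocyte replicate 1 was the highest of its group in 40 of the 42 genes, against 45.7% of all genes tested, and Acly-/- preadipocyte replicate 1 the lowest in 33, against 33.2%.

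Among the antiviral effectors, the oligoadenylate synthetases make the signal that activates RNase L upon binding double-stranded RNA. Oas3 (chromosome 5, 120753098 to 120777659, mm10) stood at 0.414, 0.368 and 0.597 FPKM in Aclyf/f preadipocytes, 8.58, 16.0 and 19.9 in Acly-/- preadipocytes, 0.531, 0.490 and 0.373 in Aclyf/f adipocytes and 5.46, 6.30 and 4.32 in Acly-/- adipocytes. All 6 Aclyf/f libraries were under 1 FPKM and all 6 Acly-/- libraries above 4, with no overlap. Mean levels differed 32.2-fold at day 0 (log2 fold change 3.37, SE 0.22) and 11.5-fold at day 4 (2.11, SE 0.22). No test is given, since a genotype difference was built into its passing the filter.

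Its neighbour Oas2 (chromosome 5, 120730333 to 120749848) stood at 4.84, 4.21 and 3.78 FPKM in Aclyf/f preadipocytes, 13.6, 26.1 and 21.8 in Acly-/- preadipocytes, 0.967, 0.547 and 0.643 in Aclyf/f adipocytes and 14.4, 17.0 and 11 in Acly-/- adipocytes. Aclyf/f adipocytes stood lowest and apart from every other group, while the Acly-/- groups of both stages overlapped. Oas2 was 4.79-fold higher in Acly-/- preadipocytes (log2 fold change 1.98, SE 0.20, adjusted p = 4.2e-06) and 19.7-fold higher in Acly-/- adipocytes (3.13, SE 0.20, adjusted p = 3.35e-08). Oas1a, the third synthetase of this cluster, was 3.38-fold and 5.99-fold higher. Members of the Oas family are related in sequence, and whether any fragments were split between them cannot be told here.

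Mx1 (chromosome 16, 97447035 to 97462906), a gene of the dynamin-like GTPase family, stood at 1.96, 2.73 and 1.75 FPKM in Aclyf/f preadipocytes, 29.4, 39.5 and 30.4 in Acly-/- preadipocytes, 0.987, 0.536 and 0.493 in Aclyf/f adipocytes and 6.27, 7.41 and 4.57 in Acly-/- adipocytes. The 4 groups did not overlap, with Acly-/- preadipocytes highest and Aclyf/f adipocytes lowest. The ratio of means was 15.4 in preadipocytes (log2 fold change 3.44, SE 0.17, adjusted p = 1.05e-08) and 9.05 in adipocytes (2.07, SE 0.17, adjusted p = 3.67e-07). Mx2, its neighbour, was 4.62-fold and 2.60-fold higher.

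Ifit proteins bind viral RNA ends and hold back translation. Ifit3 (chromosome 19, 34583529 to 34588982) stood at 35.2, 37.9 and 35.2 FPKM in Aclyf/f preadipocytes, 213, 312 and 255 in Acly-/- preadipocytes, 21.2, 12.8 and 12.4 in Aclyf/f adipocytes and 96.2, 98.5 and 85.7 in Acly-/- adipocytes. Ifit1 (chromosome 19, 34640889 to 34650009) stood at 44.6, 70.5 and 60.0, then 253, 272 and 263, then 22.6, 18.0 and 15.6, and 102, 104 and 96.2 FPKM in the same groups. In both genes the groups stood apart, Acly-/- preadipocytes on top and Aclyf/f adipocytes at the bottom. The rise was 7.20-fold and 6.03-fold for Ifit3 (adjusted p 4.07e-08 and 4.47e-08) and 4.5-fold and 5.37-fold for Ifit1 (9.34e-08 and 2.11e-08), in preadipocytes and adipocytes.

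Bst2 (chromosome 8, 71534262 to 71537437), tetherin, which holds budding virus on the cell surface, had the smallest rise of the antiviral class in preadipocytes. It stood at 382, 411 and 346 FPKM in Aclyf/f preadipocytes, 508, 636 and 784 in Acly-/- preadipocytes, 202, 127 and 133 in Aclyf/f adipocytes and 334, 305 and 347 in Acly-/- adipocytes. The genotypes did not overlap at either stage. The rise was 1.69-fold in preadipocytes (log2 fold change 0.74, SE 0.17, adjusted p = 0.00346) and 2.14-fold in adipocytes (1.12, SE 0.17, adjusted p = 9.46e-05).

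Isg20 (chromosome 7, 78913424 to 78920396), an exonuclease of single-stranded RNA, was called in opposite directions at the 2 stages. It stood at 8.85, 8.59 and 6.66 FPKM in Aclyf/f preadipocytes, 25.2, 36.4 and 45.7 in Acly-/- preadipocytes, 21.2, 21.7 and 22.0 in Aclyf/f adipocytes and 11.9, 14.3 and 14.5 in Acly-/- adipocytes. Each Acly-/- library lay above all Aclyf/f libraries at day 0 and below all of them at day 4. It was 4.45-fold higher in Acly-/- preadipocytes (log2 fold change 1.99, SE 0.17, adjusted p = 7.09e-07) and 1.59-fold lower in Acly-/- adipocytes (-0.64, SE 0.17, adjusted p = 0.0052).

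The other antiviral genes rose by a common direction at both stages. Rsad2 (viperin), which makes a chain-terminating nucleotide, went from 3.5 ± 0.436 to 32.4 ± 4.67 FPKM (SD, n = 3) in preadipocytes and from 3.00 ± 0.793 to 17.5 ± 2.33 FPKM in adipocytes. Its neighbour Cmpk2, a nucleotide kinase gene, went from 1.57 ± 0.484 to 7.92 ± 1.36 FPKM in adipocytes. Ddx60, a helicase, was 5.44-fold and 3.72-fold higher, Oasl1 8.46-fold and 6.06-fold, Oasl2 3.65-fold and 3.87-fold, Ifit2 2.32-fold and 3.41-fold and Samd9l, a restriction factor of poxviruses, 2.45-fold and 3.69-fold.

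In the ISG15 class, Isg15 itself went from 141 ± 10.6 to 571 ± 79.7 FPKM (SD, n = 3) in preadipocytes and from 78.3 ± 31.8 to 198 ± 17.2 FPKM in adipocytes, 4.04-fold and 2.52-fold. Herc6 (chromosome 6, 57580992 to 57665136), a ligase that attaches ISG15 in mouse cells, stood at 9.26, 9.41 and 9.93 FPKM in Aclyf/f preadipocytes, 53.3, 76.8 and 65.9 in Acly-/- preadipocytes, 10.3, 8.81 and 10.1 in Aclyf/f adipocytes and 26.9, 21.7 and 20.8 in Acly-/- adipocytes. The Aclyf/f groups overlapped across stages, and both Acly-/- groups stood above them. The rise was 6.85-fold (log2 fold change 2.64, SE 0.12, adjusted p = 6.76e-09) and 2.37-fold (1.16, SE 0.12, adjusted p = 3.78e-06).

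Ube2l6 (chromosome 2, 84798828 to 84810003), the conjugating enzyme for ISG15, stood at 25.5, 29.2 and 24.9 FPKM in Aclyf/f preadipocytes, 101, 132 and 157 in Acly-/- preadipocytes, 13.7, 12.1 and 11.7 in Aclyf/f adipocytes and 20.8, 20.1 and 22.3 in Acly-/- adipocytes. All Acly-/- adipocyte libraries lay below all Aclyf/f preadipocyte libraries. The rise was 4.90-fold in preadipocytes (log2 fold change 2.23, SE 0.13, adjusted p = 2.89e-08) and 1.68-fold in adipocytes (0.71, SE 0.13, adjusted p = 0.000433). Usp18, which removes ISG15 and dampens receptor signalling, was 2.42-fold and 1.74-fold higher.

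Trim25 (chromosome 11, 88999403 to 89020293), a ubiquitin ligase that acts on RIG-I, had the smallest preadipocyte rise of this class. It stood at 37.7, 36.4 and 33.3 FPKM in Aclyf/f preadipocytes, 67.0, 80.4 and 71.7 in Acly-/- preadipocytes, 35.1, 27.0 and 29.7 in Aclyf/f adipocytes and 46.6, 45.5 and 35.4 in Acly-/- adipocytes. The genotypes stayed apart at both stages, in adipocytes by a narrow gap. The rise was 2.04-fold and 1.39-fold (adjusted p 1.45e-05 and 0.00456). Trim30a was 3.51-fold and 3.76-fold higher. The ADP-ribosyltransferase genes Parp9, Parp12 and Parp14 were 3.56-fold, 3.69-fold and 3.39-fold higher in preadipocytes and 1.64-fold, 1.76-fold and 2.24-fold in adipocytes. The table lists Parp9 and its partner gene Dtx3l under a single locus, so their fragments may not be fully separate.

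The GTPase class holds the guanylate-binding proteins and the immunity-related GTPases, which act on membranes around intracellular pathogens. Gbp3 (chromosome 3, 142560052 to 142573212) stood at 30.2, 33.3 and 32.9 FPKM in Aclyf/f preadipocytes, 125, 196 and 161 in Acly-/- preadipocytes, 40.4, 26.2 and 27.4 in Aclyf/f adipocytes and 84.6, 73.2 and 79.4 in Acly-/- adipocytes. Gbp2 (chromosome 3, 142620663 to 142638008) stood at 33.4, 36.4 and 34.8, then 122, 180 and 155, then 26.3, 20.5 and 19.9, and 40.9, 39.9 and 39.0 FPKM. In both genes the genotypes did not overlap at either stage. The rise was 5-fold and 2.52-fold for Gbp3 (adjusted p 1.84e-07 and 1.38e-05) and 4.37-fold and 1.8-fold for Gbp2 (4.33e-08 and 9.9e-05).

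Irgm1 (chromosome 11, 48865249 to 48871346), a regulatory GTPase of the family, stood at 43.1, 47.1 and 39.5 FPKM in Aclyf/f preadipocytes, 129, 157 and 137 in Acly-/- preadipocytes, 14.6, 9.90 and 11.6 in Aclyf/f adipocytes and 38.2, 36.6 and 32.5 in Acly-/- adipocytes. Irgm2 (chromosome 11, 58214977 to 58222783) stood at 30.4, 34.8 and 27.8, then 56.5, 65.4 and 52.4, then 16.5, 15 and 14.3, and 27.0, 28.8 and 21.9 FPKM. Both were lowest in Aclyf/f adipocytes, and genotypes did not overlap. Irgm1 was 3.27-fold and 2.98-fold higher without Acly (adjusted p 1.86e-07 and 2.69e-07), and Irgm2 1.88-fold and 1.70-fold (3.88e-05 and 0.000139).

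Igtp (chromosome 11, 58199556 to 58207592), next to Irgm2 and given in full after its values were seen, stood at 19.9, 25.8 and 18.4 FPKM in Aclyf/f preadipocytes, 70.7, 85.3 and 76.4 in Acly-/- preadipocytes, 22.1, 16.3 and 16.6 in Aclyf/f adipocytes and 23.8, 23.7 and 24.1 in Acly-/- adipocytes. Only Acly-/- preadipocytes stood far from the rest. The rise was 3.62-fold in preadipocytes (adjusted p = 1.54e-07) and 1.30-fold in adipocytes (adjusted p = 0.0234), the latter among the calls that ended without single libraries. Iigp1 was 3.13-fold and 3.53-fold higher, and Gbp7 3.11-fold and 1.64-fold.

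Among the other genes, Ifi44 (chromosome 3, 151730923 to 151749959), a cytoplasmic protein of the antiviral response, had the largest log2 fold change at both stages. It stood at 3.78, 3.5 and 3.26 FPKM in Aclyf/f preadipocytes, 48.1, 80.5 and 72.2 in Acly-/- preadipocytes, 4.27, 3.21 and 3.04 in Aclyf/f adipocytes and 55.1, 47.8 and 44.0 in Acly-/- adipocytes. The 6 Aclyf/f libraries were all under 5 FPKM and the 6 Acly-/- libraries all above 40, with overlap between stages. The rise was 19.1-fold (log2 fold change 3.88, SE 0.16, adjusted p = 2.5e-09) and 14.0-fold (3.47, SE 0.16, adjusted p = 1.68e-09).

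Epsti1 (chromosome 14, 77904239 to 78002656) was the least abundant listed gene in 3 of the groups. It stood at 0.792, 0.520 and 0.770 FPKM in Aclyf/f preadipocytes, 4.63, 7.16 and 5.39 in Acly-/- preadipocytes, 0.375, 0.0821 and 0.251 in Aclyf/f adipocytes and 1.37, 1.22 and 0.975 in Acly-/- adipocytes. Genotypes did not overlap, though levels under 0.3 FPKM rest on few fragments. The log2 fold change was 1.98 in preadipocytes (SE 0.14) and 0.83 in adipocytes (SE 0.14). As for Oas3, no test is given, since a genotype difference was built into its passing the filter.

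Ifi27 (chromosome 12, 103433873 to 103443680) was the listed gene with no genotype call at either stage. It stood at 104, 88.0 and 81.8 FPKM in Aclyf/f preadipocytes, 108, 108 and 112 in Acly-/- preadipocytes, 270, 178 and 195 in Aclyf/f adipocytes and 185, 168 and 181 in Acly-/- adipocytes. The adipocyte libraries all lay above the preadipocyte libraries, and genotypes overlapped in adipocytes. The log2 fold change for Acly loss was 0.27 (SE 0.13, adjusted p = 0.109) in preadipocytes and -0.24 (SE 0.13, adjusted p = 0.127) in adipocytes. Without Aclyf/f adipocyte library 1 the preadipocyte difference was called (adjusted p = 0.0215), and without library 2 the adipocyte one was (adjusted p = 0.0334). Lgals3bp, a secreted glycoprotein gene among the most abundant here, went from 369 ± 24.5 to 589 ± 101 FPKM (SD, n = 3) and from 287 ± 46.5 to 635 ± 18.4 FPKM. Rtp4 was 2.18-fold and 3.06-fold higher, Xaf1 3.93-fold and 3.02-fold, Ifi35 2.90-fold and 1.38-fold and Helz2 2.81-fold and 1.34-fold.

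**Figure D3:**
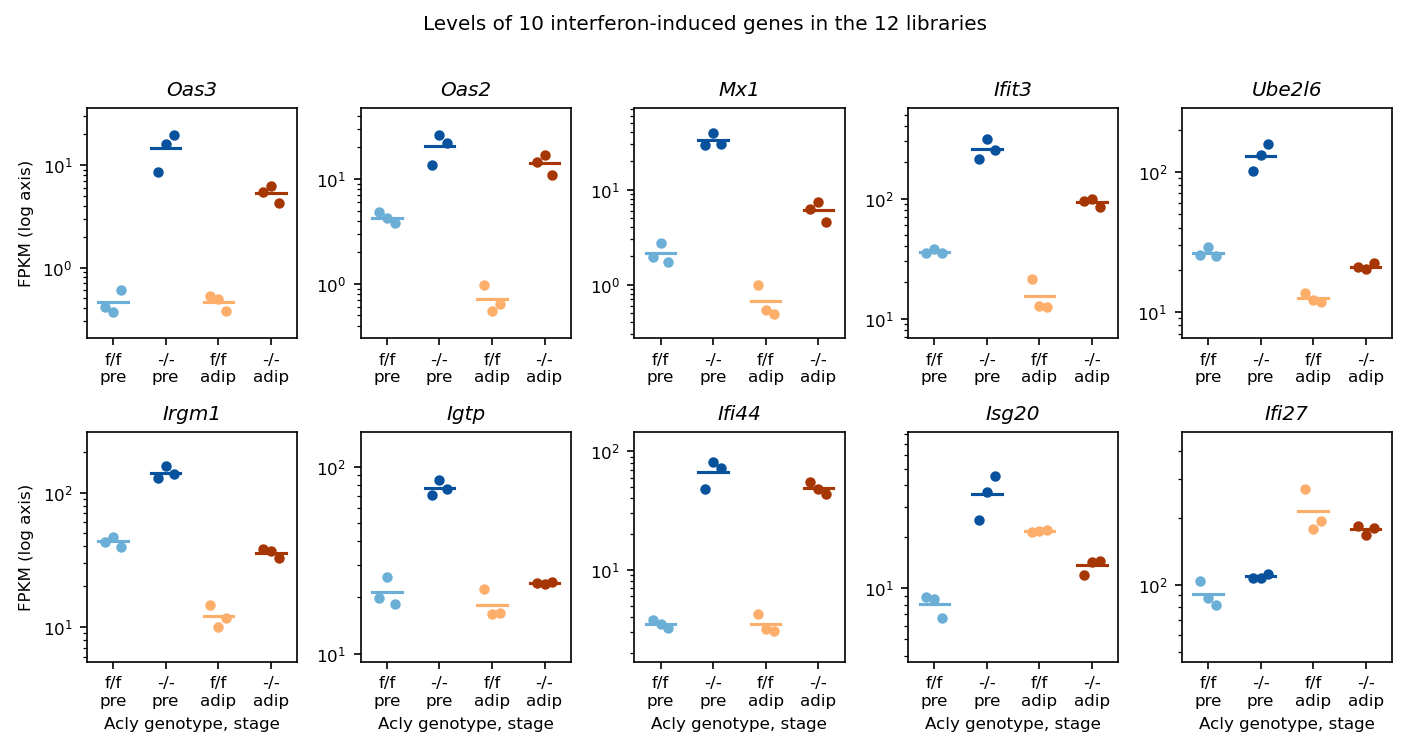
Levels of 10 of the genes in FPKM on log axes, with a point for each of the 12 libraries and a bar at the group mean. Oas3, Mx1 and Ifi44 are far higher in both Acly-/- groups, Igtp mainly in Acly-/- preadipocytes, Isg20 reverses between stages and Ifi27 follows stage.

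Whether Acly loss acted alike at both stages was tested as the difference of the log2 fold changes, adipocytes minus preadipocytes. The difference was smaller (more negative) in adipocytes for 22 of the 42 genes and larger for 4, with 16 not called. Over all genes 26.4% were called lower and 23.7% higher. The median was -0.58 over the listed genes and -0.02 over all genes. The ISG15 and ubiquitin class had 7 of 10 smaller, the GTPases 4 of 7 and the other genes 4 of 8, while the antiviral class had 7 smaller and 3 larger of 17.

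Isg20 had the most negative difference, -2.64 (SE 0.23, adjusted p = 1.15e-06). Ube2l6 followed with -1.52 (SE 0.18, adjusted p = 1.73e-05), Herc6 with -1.48 (adjusted p = 1.49e-05), Igtp with -1.44 (adjusted p = 2.57e-05) and Mx1 with -1.36 (adjusted p = 0.000464). Ube2l6 and Herc6, which act in ISG15 attachment, were thus among the genes whose rise shrank most. On this scale the low levels weigh on Mx1 and Epsti1: with a pseudocount of 0.1 in place of 1 their differences were not called (adjusted p 0.0525 for Mx1). The same setting ended the call of Ddx60 (0.0531).

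The 4 genes with a larger difference in adipocytes were Oas2 at 1.14 (SE 0.28, adjusted p = 0.00474), Samd9l at 0.55 (adjusted p = 0.0108), Ifit2 at 0.50 (adjusted p = 0.0434) and Lgals3bp at 0.49 (adjusted p = 0.0344). The Ifit2 call ended when any library was left out other than Acly-/- preadipocyte 2, Aclyf/f adipocyte 1 or Acly-/- adipocyte 3 (adjusted p 0.0587 to 0.107). The Lgals3bp call ended when any was left out other than Aclyf/f preadipocyte 3, Acly-/- preadipocyte 2 or 3, or Aclyf/f adipocyte 1 (adjusted p 0.052 to 0.0837). Without Aclyf/f adipocyte library 1, the library that was highest of its group in 40 genes, the count of genes with a larger difference was 8 and the count with a smaller one 22. The 4 added were Oas1a, Bst2, Ifitm3 and Rtp4 (adjusted p 0.0222, 0.0223, 0.0131 and 0.0051).

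**Figure D4:**
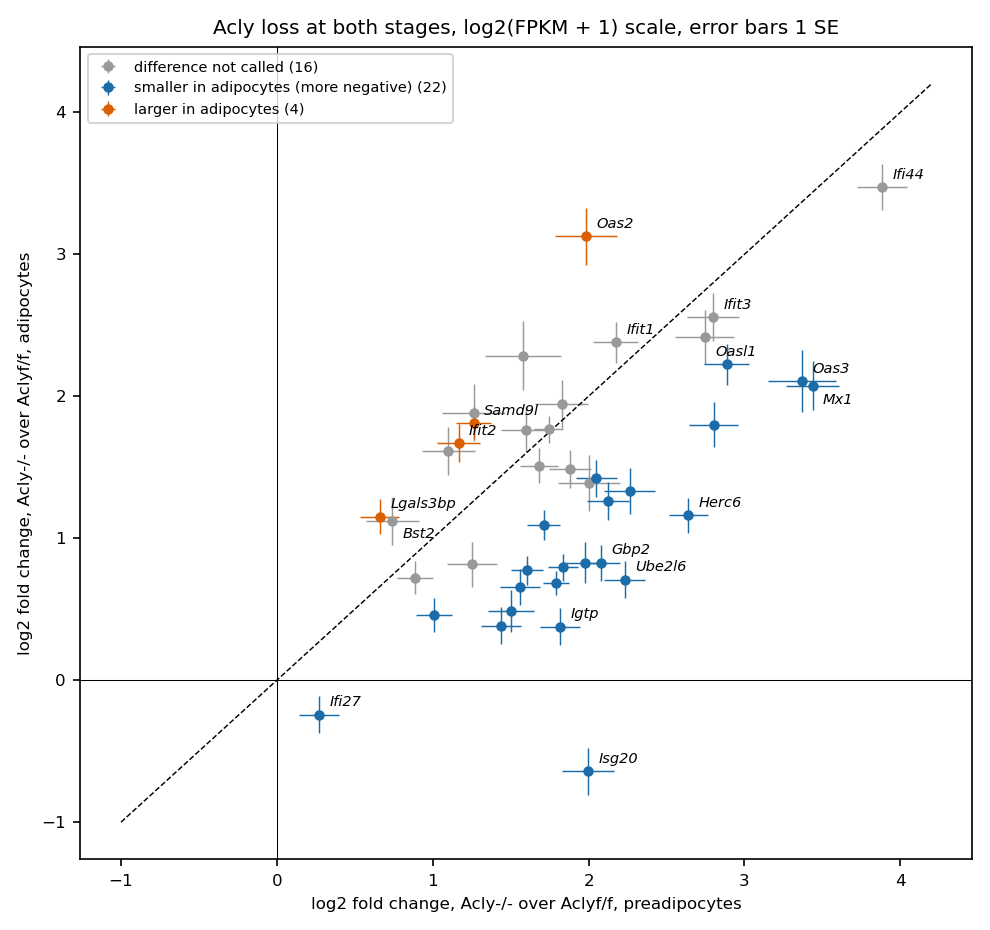
Log2 fold change for Acly loss in preadipocytes (x) and adipocytes (y) for the 42 genes on the log2(FPKM + 1) scale, with bars of 1 SE and a dashed line of equality. Blue marks the 22 genes with a more negative and orange the 4 with a larger difference in adipocytes; Isg20 alone lies well below 0 on y.

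Genes that sit next to each other in the genome received both like and unlike calls, although neighbours were not tested against each other. With a gap of at most 200000 bases, 20 of the 42 genes fell into 8 clusters. Oas2, Oas3 and Oas1a lie within 177193 bases of chromosome 5. Yet the difference between stages was 1.14 for Oas2 and -1.26 (SE 0.31, no test given) for Oas3. For Oas1a it was not called (0.71, adjusted p = 0.104). Igtp and Irgm2 lie within 23228 bases of chromosome 11 and share the promoter run shown above, with differences of -1.44 and -0.16 (adjusted p = 0.419 for Irgm2). Gbp7, Gbp3 and Gbp2 on chromosome 3 were all called, at -0.90, -0.93 and -1.25, as were Mx1 and Mx2 on chromosome 16, at -1.36 and -0.86. In the Ifit cluster of chromosome 19, Ifit2 was called at 0.50, while Ifit1 (0.21, adjusted p = 0.426) and Ifit3 (-0.24, adjusted p = 0.421) were not.

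Differentiation was compared within each genotype, day 4 against day 0. In Aclyf/f cells 29 of the 42 genes were lower in adipocytes, 4 higher and 9 had no call, against 36% lower and 36.5% higher over all genes. In Acly-/- cells 37 were lower, 1 higher and 4 had no call, against 31% and 30.4%. The median log2 fold change was -0.65 in Aclyf/f and -1.13 in Acly-/- cells. Of the listed genes, 26 were called lower in both genotypes. A further 9 had no call in Aclyf/f cells and were lower in Acly-/- cells, and 3 were lower in Aclyf/f cells with no call in Acly-/- cells. Isg20 and Ifi35 were called higher in Aclyf/f and lower in Acly-/- cells. Joint calls of this kind were not counted over all genes. These 2 comparisons share no library, and their difference equals the difference of Acly loss between stages tested above.

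In Aclyf/f cells the largest falls were those of Irgm1 (3.60-fold, log2 fold change -1.78, SE 0.12, adjusted p = 1.28e-08), Oas2 (5.95-fold, -1.62, SE 0.20, adjusted p = 6.24e-06) and Ifit1 (3.11-fold, -1.58, SE 0.15, adjusted p = 2.93e-07). The 4 rises were in Isg20 (2.70-fold, adjusted p = 6.47e-06), Ifi27 (2.35-fold, adjusted p = 1.34e-06), Oasl1 (1.59-fold, adjusted p = 0.0253) and Ifi35 (1.32-fold, adjusted p = 0.0338). The calls of Oasl1 and Ifi35 ended without Aclyf/f adipocyte library 1 (adjusted p 0.133 and 0.177) or Aclyf/f preadipocyte library 3 (0.0835 and 0.132), and that of Oasl1 also without Aclyf/f preadipocyte library 1 (0.0885). Without that adipocyte library, 2 genes were higher and 32 lower, against 35.4% and 34.4% of all genes. Without Aclyf/f adipocyte library 2, 4 were higher and 26 lower, against 34.5% and 33.9%. Without library 3 of that group, 4 were higher and 27 lower, against 34.8% and 34.3%. Levels of Oas3, Herc6 and Ifi44 overlapped between stages in Aclyf/f cells (log2 fold change 0.01, 0.03 and -0.01).

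In Acly-/- cells the largest falls were those of Ube2l6 (6.18-fold, log2 fold change -2.55, SE 0.13, adjusted p = 1.34e-09), Mx1 (5.44-fold, -2.28, SE 0.17, adjusted p = 7.7e-08) and Irgm1 (3.95-fold, -1.95, SE 0.12, adjusted p = 1.15e-08). Ifi27 was the gene called higher (1.62-fold, adjusted p = 0.000355). The calls of Oas1a (-0.66, adjusted p = 0.0317) and Ifi44 (-0.42, adjusted p = 0.0384) were at the margin, with groups that overlapped. With the replicate number as a block they were not called (adjusted p 0.0505 and 0.0568). Both calls also ended without Acly-/- preadipocyte library 2 (0.138 and 0.179) or 3 (0.125 and 0.12) and without Acly-/- adipocyte library 2 (0.0566 and 0.0875) or 3 (0.0833 and 0.131), and that of Oas1a without Acly-/- adipocyte library 1 (0.0666).

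The genes upstream of the effectors were read from lists of ligands, receptors, kinases with STATs and IRFs, feedback genes and nucleic acid sensors. Of 21 interferon ligand genes, Ifnb1 alone passed the filter. It was on the floor in all 6 Aclyf/f libraries, at 2.08, 1.08 and 1.08 FPKM in Acly-/- preadipocytes and at 0.179, 0.144 and 0.148 FPKM in Acly-/- adipocytes. Every Acly-/- library thus had some Ifnb1 signal, low in preadipocytes and close to the floor in adipocytes. It passed the filter only through the Acly-/- preadipocyte libraries, so its differences between genotypes at day 0 and between stages were built into its passing and are given with no test. In adipocytes the genotype difference had no call with the pseudocount of 1 (log2 fold change 0.20, adjusted p = 0.233) and was called with one of 0.1 (1.22, adjusted p = 0.00903). Ifna4 was on the floor except in Acly-/- preadipocyte libraries 1 and 2, at 0.752 and 0.818 FPKM, and Ifng stayed at or under 0.274 FPKM in every library. Fragment numbers behind such values are small.

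In preadipocytes limma called 0 of 5 tested receptor genes higher and 4 lower, against 19.7% and 22.4% of all genes, and all 5 log2 fold changes were negative. Ifnar1 stood at 19.0, 19.1 and 18.3 FPKM in preadipocytes with Acly and 15.4, 16.2 and 14.5 FPKM in those without, a fall by 0.28 on the log2 scale (adjusted p = 0.00585). In adipocytes it stood at 12.5, 12.9 and 12.5 against 15.3, 15.4 and 14.0 FPKM, higher by 0.22 (adjusted p = 0.0155). That call in adipocytes ended with the same FPKM sum (adjusted p = 0.25) and without Acly-/- adipocyte library 1 (0.0575) or 2 (0.0545). Ifngr2, the second chain of the interferon-gamma receptor, was called lower in preadipocytes (-0.38, adjusted p = 0.00216) and higher in adipocytes (0.66, adjusted p = 1.38e-05). In adipocytes 3 of the 5 receptor genes were higher and 2 lower, against 25.6% and 29.2% of all genes.

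Of 10 tested genes of kinases, STATs and IRFs, 6 were called higher and 0 lower by limma in Acly-/- preadipocytes, with 0 lower also at an unadjusted p under 0.05, and 6 higher and 1 lower in Acly-/- adipocytes. Over all genes 19.7% were higher and 22.4% lower in preadipocytes, and 25.6% and 29.2% in adipocytes. Of the 6 higher in preadipocytes, Jak2 was at the margin (log2 fold change 0.25, adjusted p = 0.0465), and its call ended under 16 of 22 alternatives (adjusted p up to 0.346), among them leaving out any library other than Acly-/- preadipocyte 3 or Aclyf/f adipocyte 1. Irf7, which drives interferon-alpha genes, stood at 24.0, 27.4 and 23.9 FPKM in Aclyf/f preadipocytes, 164, 234 and 251 in Acly-/- preadipocytes, 37.7, 25.3 and 24.0 in Aclyf/f adipocytes and 138, 133 and 120 in Acly-/- adipocytes. Its libraries did not overlap between genotypes at either stage. The ISGF3 subunit genes Stat2 and Irf9 had log2 fold changes of 1.43 and 0.74 in preadipocytes and 1.00 and 0.79 in adipocytes, all called. Jak1 (-0.03, adjusted p = 0.757) and Tyk2 (-0.08, adjusted p = 0.549) had no call in preadipocytes.

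Irf1, an interferon-inducible transcription factor, was the gene of that list with opposite calls. It stood at 30.5, 36.6 and 35.3 FPKM in Aclyf/f preadipocytes, at 53.2, 54.6 and 60.5 FPKM in preadipocytes without Acly, and at 41.7, 40.1 and 39.0 against 27.7, 28 and 28.4 FPKM in adipocytes. No libraries overlapped between genotypes, with Acly-/- on top at day 0 and at the bottom at day 4, as for Isg20. The log2 fold changes were 0.70 (adjusted p = 9.18e-06) and -0.51 (adjusted p = 9.73e-05), and their difference was -1.21 (SE 0.11, adjusted p = 1.33e-06).

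Among 4 negative regulators, Socs1, which blocks the JAK kinases, was higher at both stages (log2 fold change 1.62 and 0.80, adjusted p 7.49e-05 and 0.0083), and Socs3 was lower in preadipocytes (-0.38, adjusted p = 0.00257) and higher in adipocytes (0.34, adjusted p = 0.00377). Ptpn2 and Pias1 had no call at either stage. Most genes of the list of nucleic acid sensors were higher too: 10 of 12 were higher and 2 lower in preadipocytes, against 19.7% and 22.4% of all genes, and 9 higher and 1 lower in adipocytes, against 25.6% and 29.2%. Of these 9, Trex1, a DNA exonuclease, was at the margin (log2 fold change 0.38, adjusted p = 0.0412), and its call ended under 9 of 22 alternatives (adjusted p up to 0.163), among them leaving out any Acly-/- adipocyte library, Aclyf/f adipocyte library 2 or 3, or preadipocyte library 2 of either genotype. Zbp1, a sensor of Z-form nucleic acid, went from 10.5, 6.72 and 7.54 to 68.1, 120 and 108 FPKM in preadipocytes and from 3.25, 1.65 and 2.29 to 16.2, 15.2 and 13.4 FPKM in adipocytes. The genes of RIG-I (Ddx58) and MDA5 (Ifih1) had log2 fold changes of 1.86 and 1.67 in preadipocytes. The 2 lower in preadipocytes were the adaptor genes Tmem173, which encodes STING (-0.51, adjusted p = 0.00382), and Mavs (-0.18, adjusted p = 0.0353). The Mavs call ended under 8 of 22 alternatives (adjusted p up to 0.127), among them the fit on the compared groups only (0.109) and leaving out library 2 or 3 of Aclyf/f preadipocytes, Acly-/- preadipocytes or Aclyf/f adipocytes.

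**Figure D5:**
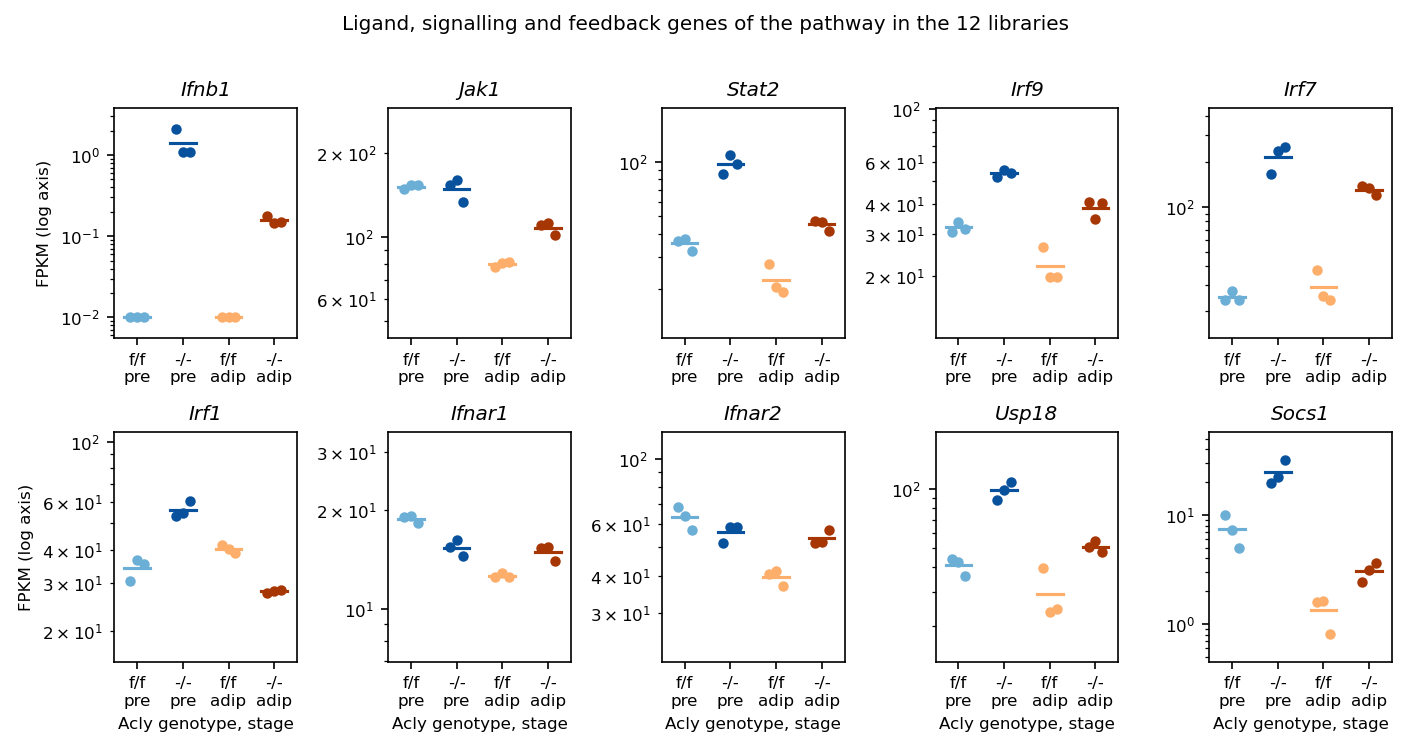
Levels of 10 genes of interferon signalling in FPKM on log axes, with a point for each of the 12 libraries and a bar at the group mean. Ifnb1 sits on the floor of 0.01 FPKM in all 6 Aclyf/f libraries, Stat2, Irf9 and Irf7 are higher in both Acly-/- groups, and Irf1 reverses between stages.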

How the data were processed

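Per the labels' protocols, Trizol was used to extract the RNA and a TruSeq kit of Illumina to prepare the libraries. Cufflinks 2.2.1, Bowtie2 2.2.6, bcl2fastq and the build mm10 are named, with no role or order, per the submitters' processing notes. The authors deposited FPKM, 1 column per library, and each column was matched to its library by the description in the labels. No value lies under 0.01 FPKM, and genes on that floor cannot be told from absent ones. The sources used here do not give the gene annotation, the use of strand or the handling of near-identical genes.

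From the deposited FPKM, log2(FPKM + 1) was modelled in R 4.3.3 by limma 3.58.1, with a mean for each of the 4 groups and trended moderated variances over all 12 libraries. The test covered genes that reached 1 FPKM in 3 or more libraries, and p-values were adjusted by Benjamini-Hochberg over all 11777 genes in each of 5 contrasts, with a call at an adjusted p under 0.05. The fit was tested on simulated data. Folds are ratios of mean FPKM. The table holds no counts, so absolute depth is unknown, and relative depth was read from the steps of values under 0.3 FPKM. No pair of libraries was identical. Start-site windows and their sequences are from RefSeq (GRCm38.p6). Summaries used pandas 2.3.3 and numpy 2.4.6 in Python 3.11.15, and plots matplotlib 3.10.9.

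The members, the pathway lists, the tests and the alternatives were chosen with earlier results of these data known. All members may be named. Values of every library are given for the 2 members with the largest and the 1 with the smallest log2 fold change for Acly loss in preadipocytes in each role class, for the 3 with the largest absolute value in each other contrast, and for a member called in opposite directions at the 2 stages. Alternatives were a pseudocount of 0.1 or 0.5, no filter or a filter on the mean, quantile, same-sum and median-of-ratios scaling, a fit on the compared groups only, no variance trend, the replicate number as a block, and each library left out.

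Groups share replicate numbers in the labels, which do not say what a number marks. Deviations from group means of same-numbered libraries correlated at 0.123, 0.147 and 0.124 between the Acly-/- stages, and the numbers were taken to pair those libraries. That pairing is an assumption, since these values are low and libraries of unlike number reached 0.312 between the adipocyte genotypes. For differentiation in Acly-/- cells, blocked values stand beside the calls of listed genes that they end. From each of the lists of signalling genes and leukocyte markers, 1 gene is not reported here.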

Additional observations from a re-analysis of the deposited data

Results flagged for a closer look

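For 26 of the 42 genes the effect of Acly loss differed between stages by the interaction test in limma (values are the log2 fold change in adipocytes minus that in preadipocytes, n = 3 libraries a group). Of the 42, 22 were called smaller and 4 larger in adipocytes, against 26.4% and 23.7% of all genes tested. The stated directions are those of the fitted means. Oas3 and Epsti1 are in these counts, although they passed the filter only through their Acly-/- libraries.

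In the antiviral class, Isg20 (-2.64), Mx1 (-1.36), Oas3 (-1.26), Cmpk2 (-1.0), Mx2 (-0.86), Rsad2 (-0.66) and Ddx60 (-0.63) were more negative in adipocytes, while Oas2 (1.14), Samd9l (0.55) and Ifit2 (0.5) were more positive. Isg20 is the gene whose sign turned with both stages called.

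In the ISG15 and ubiquitin class the values were -1.52 for Ube2l6, -1.48 for Herc6, -1.11 for Parp9, -1.04 for Parp12, -0.83 for Dtx3l, -0.62 for Parp14 and -0.55 for Trim25. Among GTPases they were -1.44 for Igtp, -1.25 for Gbp2, -0.93 for Gbp3 and -0.9 for Gbp7. Among the other genes Epsti1 (-1.15), Helz2 (-1.05), Ifi35 (-1.02) and Ifi27 (-0.51) were more negative and Lgals3bp (0.49) more positive. The Ifi27 call ended without Aclyf/f preadipocyte library 2 (adjusted p = 0.0624) or 3 (0.0777), Acly-/- preadipocyte library 3 (0.0564) or Acly-/- adipocyte library 2 (0.07).

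Beyond the effectors, 30 other tested genes of the lists read here differed between stages by the same test. Genes called higher and lower were 3 and 0 of 5 tested receptors and 2 and 2 of 10 kinases, STATs and IRFs. They were 1 and 1 of 4 negative regulators and 2 and 9 of 12 sensors. Among markers they were 1 and 4 of 6 for adipocytes, 3 and 0 of 3 for preadipocytes and 1 and 0 of 1 for leukocytes. Over all genes 23.7% were called higher and 26.4% lower. Acly itself had -3.08, with a higher level in Aclyf/f adipocytes than in Aclyf/f preadipocytes. Among signalling genes Irf1 had -1.21, Irf7 -0.88, Socs1 -0.81, Ifnar1 0.5, Ifnar2 0.59, Ifngr2 1.04, Jak1 0.46, Irf2 0.25 and Socs3 0.72. Among nucleic acid sensors Ddx58 had -0.63, Ifih1 -0.78, Dhx58 -1.14, Mavs -0.48, Tlr3 -0.88, Zbp1 -1.16, Mb21d1 -0.48, Eif2ak2 -0.46, Trex1 -0.75, Tmem173 0.79 and Samhd1 0.34. The calls of Irf2, Socs1 and Samhd1 were at the margin and ended under 11, 14 and 11 of 21 alternatives (adjusted p up to 0.169, 0.267 and 0.0804). The Irf2 call ended when any library was left out other than preadipocyte 1 of either genotype, Acly-/- preadipocyte 2 or Acly-/- adipocyte 3. That of Socs1 ended for any other than preadipocyte 1 or adipocyte 3 of either genotype, and that of Samhd1 for any other than Aclyf/f preadipocyte 3, Acly-/- preadipocyte 2 or Aclyf/f adipocyte 1.

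Among cell type markers Adipoq had -3.08, Plin1 -0.97, Cidec -1.48, Cfd -4.0 and Fabp4 0.8, and Pdgfra had 1.78, Pdgfrb 1.15 and Ly6a 1.54. Cd68, a lysosomal gene read as a leukocyte marker, had 3.39, while Ptprc stayed on the floor in all 12 libraries. Ifnb1 and the endothelial gene Kdr are not counted, since each reached 1 FPKM in a single group and its difference was built into passing the filter.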

How the results depend on the processing

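For Acly loss in preadipocytes all 41 called genes kept their call and direction under every alternative run, for Acly loss in adipocytes 38 of 41, for differentiation 28 of 33 in Aclyf/f and 36 of 38 in Acly-/- cells, and for the difference between stages 18 of 26. No call reversed. With no filter on low values, 2 listed genes rather than 4 were higher with differentiation in Aclyf/f cells and 2 rather than 4 had a larger difference in adipocytes. With the fit on the compared groups only, the count higher with differentiation in Aclyf/f cells was 2. With the same FPKM sum, 2 genes rather than 1 were lower in Acly-/- adipocytes, the second being Ifi27 (adjusted p = 0.0404). Leaving out 1 library gave 2 to 4 genes higher with differentiation in Aclyf/f cells, 2 to 8 with a larger difference in adipocytes and 1 to 2 lower in Acly-/- adipocytes. The count of 2 higher with differentiation came without Aclyf/f preadipocyte library 3 or Aclyf/f adipocyte library 1. The count of 2 with a larger difference came without preadipocyte library 1 of either genotype, Aclyf/f preadipocyte library 2, adipocyte library 2 of either genotype, Aclyf/f adipocyte library 3 or Acly-/- adipocyte library 1. The count of 8 came without Aclyf/f adipocyte library 1, and the second gene lower in Acly-/- adipocytes without Aclyf/f adipocyte library 2. The cause was not tested.

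With the replicate number as a block, listed genes counted 41 higher for Acly loss in preadipocytes, 40 higher and 1 lower in adipocytes, 4 higher and 29 lower with differentiation in Aclyf/f cells, 1 and 35 in Acly-/- cells, and 3 larger and 22 smaller differences between stages. It ended the call of Lgals3bp (adjusted p = 0.0587) besides those of Oas1a and Ifi44, and of no other listed gene. Among the signalling and sensor genes for Acly loss it ended the calls of Jak2 and Mavs in preadipocytes (adjusted p 0.074 and 0.0644), of Trex1 in adipocytes (0.0642) and of Irf2 and Socs1 for the difference between stages (0.0747 and 0.073). Same-numbered libraries correlated at -0.1, -0.058 and -0.186 between the preadipocyte genotypes, at -0.293, -0.176 and -0.158 between the adipocyte genotypes and at 0.135, -0.029 and 0.091 between the Aclyf/f stages, so there they share only a number. Levels under 0.3 FPKM, as for Epsti1 in Aclyf/f adipocytes and Ifnb1 in Acly-/- adipocytes, rest on few fragments.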
